A study of Mus musculus with 5 samples.

Results

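The genes described here were listed for the motile cilium of airway ciliated cells, and the cell source of each in whole lung was not tested. The 39 symbols cover the dynein motors of the axoneme, the structures that hold it together, other transcripts enriched in ciliated cells, and 4 transcriptional regulators. A gene was kept when its symbol was present in all 4 deposited comparison tables with a mean abundance of at least 0 on the log2 scale of CPM, the read count scaled to library size. Of the 39, 36 were found and 35 were kept, out of 21590 genes in each table. The symbols Dnah3, Dnah7a and Dnah12 were not matched. Gmnc was the single listed gene that was found but not kept, at a lowest log2 mean CPM of -0.32, and the kept gene nearest the minimum was Lrrc6 at 1.41. Of the kept genes, 13 were taken as ciliated cell markers, and their levels lay between 4.54 CPM (Sntn) and 375 CPM (Tppp3) over the groups. Because these markers belong to the set and passed its minimum abundance, their detection is no check of its name.

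Whole lungs came from wild-type mice and from mice lacking Cldn4, which encodes the tight junction protein claudin 4, all on a mixed 129S6, C57BL/6 and BALB/c background. Lungs were taken either without ventilation or after 2 h of injurious mechanical ventilation at a pressure of 40 cmH2O, which injures the lung by overstretching it. This gave 5 groups: wild type and knockout without ventilation, ventilated wild type, ventilated knockout with injury similar to the wild type ("low-injury knockout") and ventilated knockout with more injury than the wild type ("high-injury knockout"). The last 2 groups were formed by the outcome of the experiment, ages are not given in the labels, and the design text gives 2 libraries per group without saying that they came from separate animals, so p-values measure only the spread between these libraries.

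Motile cilia beat by means of an axoneme, a ring of doublet microtubules around a central pair. Dynein arms on the doublets generate sliding, radial spokes and the central pair coordinate it, and in the airways the beat moves mucus out of the lung. Gmnc starts the multiciliated programme, and Foxj1 and the RFX factors, which bind an inverted repeat called the X-box, activate the axonemal genes.

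Because RFX factors act through the X-box, promoters of the listed genes were searched for it. RefSeq promoter sequences (GRCm38.p6, from 250 bases before to 50 bases after the start) were matched by Entrez gene identifier. Entries were found for 29 of the 35 genes, 32 in all, and none for Tppp3, Rsph4a, Rsph1, Foxj1, Lrrc6 and Armc4. An X-box match on either strand was found for 21 of the 29 genes, in 68.8 percent of their entries against 20.4 percent of all 32851 promoters. Most lay close to the start: 20 genes had a match centred between 100 bases before and 50 bases after it, in 65.6 percent of entries against 11.1 percent of all promoters. The windows below show 1 match for genes of different roles, chosen after the matches were seen, 5′ to 3′ with the match in capitals and 8 flanking bases on each side. They are from chr15:28203702-28203731 (plus strand, Dnah5), chr17:30626769-30626797 (minus, Dnah8), chr11:66168613-66168641 (plus, Dnah9), chr1:46066821-46066849 (plus, Dnah7b), chr8:116504956-116504984 (plus, Dynlrb2), chr8:110266948-110266977 (plus, Hydin), chr11:72361876-72361905 (minus, Tekt1), chr12:33092939-33092967 (plus, Cdhr3) and chr17:56830968-56830997 (minus, Rfx2).
Dnah5: gaaacagtATTACCCTAACAACgaaggacc
Dnah8: gcttgaccATCATCAGGTAACtcacctat
Dnah9: gcgtcgttGTTGCTGGGAAACtggtggaa
Dnah7b: gccagtttGTTGCTTAGCAACgaatcgac
Dynlrb2: cctgcctgGTTGCCTAGCAACgggggaag
Hydin: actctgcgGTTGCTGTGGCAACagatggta
Tekt1: tccgtccgGTTGCCATAGAGACcgcagttt
Cdhr3: gtctgcttGTTCCTTGATGACcaacacgt
Rfx2: ccaccgccGCCGCCATAGAGACtgtagccg
The Dnah8 match was the farthest of these from the start, centred at -152, against -8 for Tekt1 and -14 for Hydin.

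The shorter motif GTTGCC, which overlaps the X-box, was searched on both strands and was present for 16 of the 29 genes, in 53.1 percent of entries against 12.5 percent of all promoters. Both motifs were present for 13 genes and neither for 5. The forkhead motif TGTTTAC, the kind of sequence Foxj1 binds, was found on either strand for 2 genes, Ak7 and Sntn, in 6.25 percent of entries against 3.65 percent of all promoters. Sntn is shown whole because it was the only listed gene lower at the threshold in 3 of the 4 deposited tables. Its promoter at chr14:13670626-13670925 (plus strand) held 1 forkhead match, on the opposite strand, and 1 GTTGCC, both in capitals.
Sntn: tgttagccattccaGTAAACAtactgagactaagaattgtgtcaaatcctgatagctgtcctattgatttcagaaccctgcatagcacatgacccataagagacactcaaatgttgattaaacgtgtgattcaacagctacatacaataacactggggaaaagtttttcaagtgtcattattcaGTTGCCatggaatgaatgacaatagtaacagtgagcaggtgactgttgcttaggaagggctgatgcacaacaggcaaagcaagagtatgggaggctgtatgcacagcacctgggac

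The deposited tables hold no values per library, so the depth and the spread between libraries are unknown, and each group has 1 rebuilt level in CPM per gene. The targeted gene Cldn4 stood at 8.98 CPM in the unventilated wild type and 140 CPM in the ventilated wild type, against 0.135, 0.0211 and 0.122 CPM in the unventilated, low-injury and high-injury knockouts. Sex-linked transcripts separated the unventilated from the ventilated groups: Xist was at 890 and 504 CPM without ventilation and at 2.64 to 6.13 CPM with it, and the Y-linked Ddx3y at 0.10 and 0.18 CPM against 91.9 to 115 CPM. Sex and ventilation therefore cannot be told apart in any comparison of ventilated with unventilated lungs.

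Part of the ciliated cell transcripts fell in unventilated knockout against unventilated wild-type lungs. In the authors' deposited table, 9 of the 35 genes fell and none rose at an adjusted p of 0.05, where 2.83 percent of all genes tested fell and 2.01 percent rose. The 35 genes were chosen with earlier results of these data known, so these shares are a description and no test of the set. The genes that fell were the dynein heavy chains Dnah5, Dnah8 and Dnah10, the ruler proteins Ccdc39 and Ccdc40, the central pair protein Hydin, the radial spoke head protein Rsph4a, the cilium tip protein Sntn, and Cdhr3, a cadherin-related surface protein of ciliated cells. The fold change was negative for 34 of the 35 genes, with a median of -0.48 log2 against 0.01 for all genes, and Tppp3 was the exception at 0.01. In whole lung, fewer ciliated cells and less of each RNA per cell cannot be told apart.

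Among the dynein heavy chains, Dnah8 had the lowest fold change in all 3 comparisons of knockout with wild type, while Dnah10 had the lowest with ventilation of the wild type. Dnah8 stood at 29.6 CPM in the unventilated wild type and 8.04 CPM in the unventilated knockout. With ventilation it stood at 26.4 CPM in the wild type, 9.39 CPM in the low-injury knockout and 14.3 CPM in the high-injury knockout. All 3 knockout groups were below both wild-type groups. In the authors' deposited table for unventilated lungs it fell by 1.88 log2 (approximate SE 0.21, adjusted p = 3.69e-16), a 3.68-fold lower level. The low-injury knockout was lower than the ventilated wild type by a log2 fold change of -1.49 (SE 0.34, adjusted p = 0.00252) in the authors' deposited table, while the high-injury knockout at -0.89 did not pass (adjusted p = 0.237). No such drop was called with ventilation of the wild type, at -0.17 log2 (adjusted p = 0.915 in the authors' deposited table). The part of the mixed strain background in the Dnah8 values was not tested. Calls among its neighbours on the chromosome are given under other observations.

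Dnah5, a heavy chain of the outer dynein arm, stood at 74.9, 51, 62.8, 42.3 and 69.5 CPM in the 5 groups, in the order unventilated wild type, unventilated knockout, ventilated wild type, low-injury knockout and high-injury knockout, which is used below. Its log2 fold change in unventilated knockouts was -0.56 (SE 0.157, adjusted p = 0.0184, authors' deposited table). Dnah10, a heavy chain of the inner arm, stood at 47, 28.5, 31.7, 24.3 and 31.3 CPM. Both knockout and ventilation comparisons of Dnah10 passed in the authors' deposited tables, at -0.72 (adjusted p = 0.0233) and -0.57 (adjusted p = 0.0287). Dnah9, another outer arm heavy chain of the airway, stood at 55, 39.3, 46.7, 38.5 and 58.3 CPM, and its -0.48 in unventilated knockouts did not pass (adjusted p = 0.0663, authors' deposited table). Dnah7b stood at 13.7, 9.24, 10.3, 8.93 and 11.2 CPM. Dnah7b is nearly identical to other Dnah7 copies, and the way its reads were counted is not given in the sources used here, so its values are uncertain. Over the 8 heavy chains the median log2 fold change was -0.54 in unventilated knockouts and -0.25 in ventilated wild types.

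Ccdc39 and Ccdc40 form the ruler that sets the repeat of dynein arms and radial spokes along the doublet. Ccdc39 stood at 38, 15.2, 25.3, 19.3 and 15.6 CPM, so all 3 knockout groups lay below both wild-type groups. It fell by 1.32 log2 in unventilated knockouts (SE 0.216, adjusted p = 2.88e-07) and by 0.58 with ventilation of the wild type (SE 0.204, adjusted p = 0.0463) in the authors' deposited tables. Ccdc40 stood at 36.7, 21.9, 25.2, 22.9 and 31.7 CPM and fell by 0.75 log2 in unventilated knockouts (SE 0.171, adjusted p = 0.00117, authors' deposited table). Its high-injury knockout level lay above the other 3 groups outside the unventilated wild type, unlike that of Ccdc39.

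Hydin, a projection of the central pair, stood at 48.1, 29.3, 43.4, 27.3 and 39.6 CPM and had a log2 fold change of -0.71 in unventilated knockouts (SE 0.225, adjusted p = 0.0469, authors' deposited table). Rsph4a stood at 35.8, 23.9, 25.6, 15.4 and 21.7 CPM, with -0.59 in unventilated knockouts (SE 0.162, adjusted p = 0.0152, authors' deposited table). Both had their lowest level in the low-injury knockout. Rsph1, another radial spoke head protein, stood at 21.2, 15.7, 16.6, 15.5 and 21.8 CPM, and the tektin Tekt1, a filament of the doublet wall, at 18.7, 13.3, 14.1, 12.7 and 17.2 CPM. Neither passed in any of the 4 tables. By role, the medians in unventilated knockouts were -0.43 for 3 radial spoke genes, -0.44 for 4 central pair genes, -0.47 for 3 tektins, -0.42 for 3 intermediate and light chains, -0.34 for 3 assembly and docking factors, -0.57 for 6 other ciliated cell genes and -0.27 for 3 regulators. The 2 ruler genes had the lowest, at -1.04. Differences between roles were not tested.

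Sntn and Tmem212 were, with Dnah8, the genes called in the low-injury knockout. Sntn, which encodes sentan of the cilium tip, stood at 21.1, 8.95, 11.7, 4.54 and 9.47 CPM. It fell by 1.24 log2 in unventilated knockouts (SE 0.226, adjusted p = 9.41e-06), by 0.84 with ventilation (SE 0.235, adjusted p = 0.0065) and by 1.37 in the low-injury knockout (SE 0.335, adjusted p = 0.00785) in the authors' deposited tables. Every other group was below the unventilated wild type by at least 1.79-fold. Tmem212, a membrane protein transcript found in ciliated cells, stood at 25.9, 12.1, 16.9, 6.98 and 17.7 CPM. It passed in the low-injury knockout, at -1.27 (SE 0.278, adjusted p = 0.00125), and not in unventilated knockouts, at -1.10 (adjusted p = 0.0631), in the authors' deposited tables. Cdhr3 stood at 39.7, 24.6, 28.7, 25.6 and 32.7 CPM, and fell by 0.69 log2 in unventilated knockouts (SE 0.175, adjusted p = 0.0053, authors' deposited table).

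**Figure D1:**
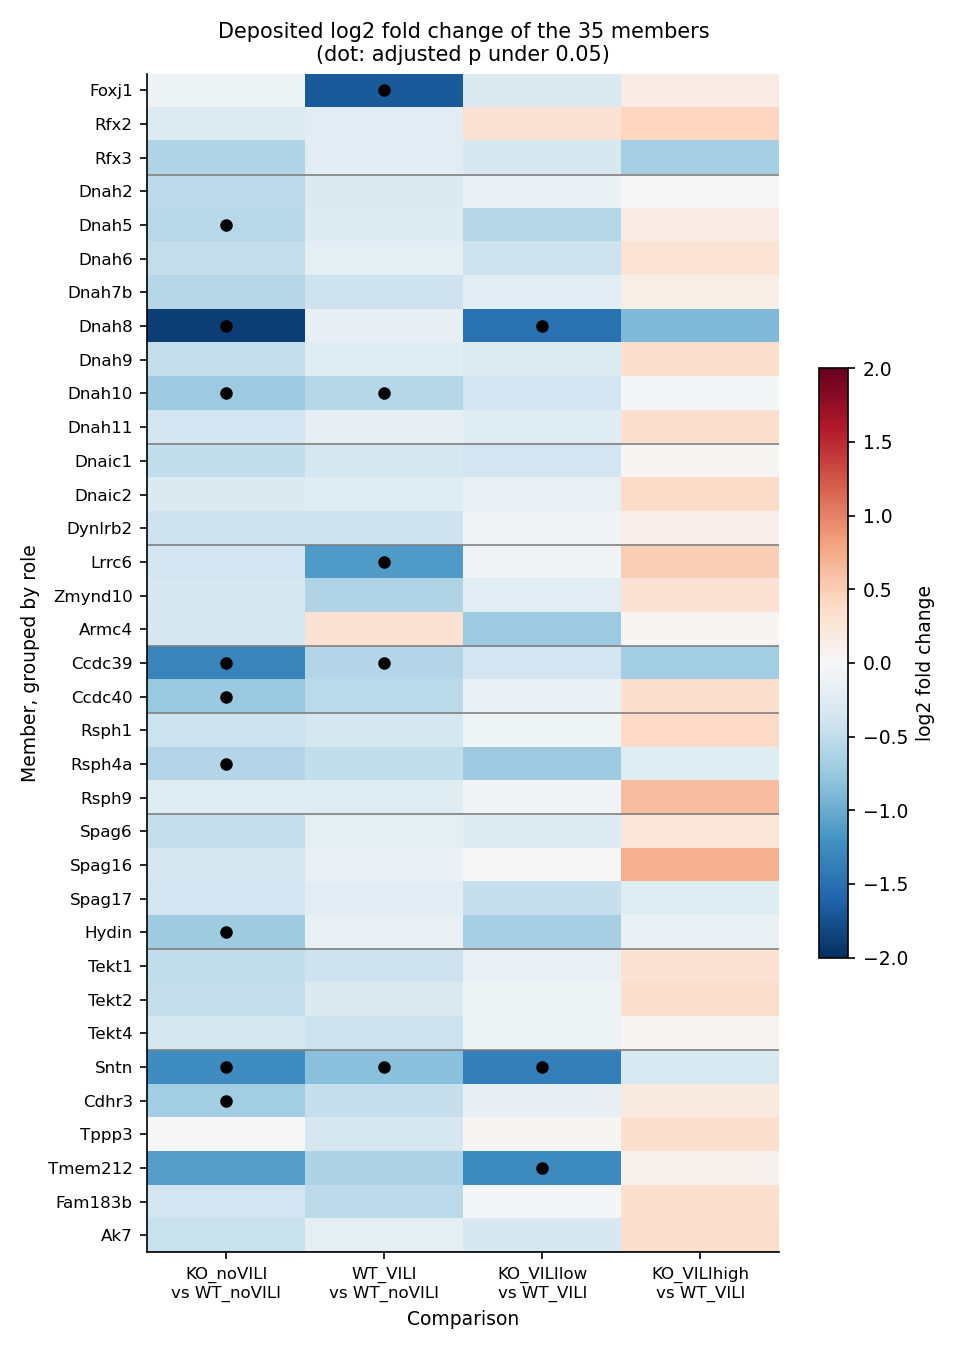
Log2 fold change of the 35 genes (rows, by role) in the 4 deposited comparisons (columns), on a colour scale from lower to higher, with a dot where the authors' adjusted p was under 0.05. The first 2 columns are negative for 34 of 35 genes each, and the last column is negative for 8.

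With ventilation of wild-type mice Foxj1 had a 3.21-fold lower level, while few axonemal genes passed the test. In the authors' deposited table, 5 of the 35 genes fell and none rose, where 6.2 percent of all genes fell and 6.94 percent rose. The genes that fell were Foxj1, Lrrc6, Ccdc39, Dnah10 and Sntn, or 14.3 percent of the 35. The fold change was negative for 34 of 35 genes with a median of -0.34 against -0.02 for all genes, and Armc4, a docking factor, was the exception at 0.29. This comparison and that of unventilated knockouts share the unventilated wild type.

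Foxj1, the factor that drives motile cilium genes, stood at 87, 81.3, 27.1, 22.2 and 30.3 CPM. The 3 ventilated groups all lay below both unventilated groups, whatever the genotype. Xist and Ddx3y separate the same groups, so sex and ventilation cannot be told apart here either. With ventilation of the wild type Foxj1 fell by 1.68 log2 (SE 0.168, adjusted p = 4.99e-21, authors' deposited table). In knockouts, the fold change of ventilated against unventilated lungs, derived from the deposited folds, was -1.87 for the low-injury group (adjusted p = 5.08e-06) and -1.43 for the high-injury group (adjusted p = 0.00545). Foxj1 was the only one of the 35 genes called in either of these derived comparisons, where 1.18 and 1.27 percent of all genes fell and 2.09 and 2.37 percent rose. Its genotype difference was -0.10 log2 without ventilation, and the difference between the genotype effects with and without ventilation was -0.19 for the low-injury and 0.26 for the high-injury group (adjusted p = 1 and 0.974).

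Gmnc, which encodes the geminin-like protein that starts multiciliated cell formation, stood at 4.13, 2.9, 0.647, 0.544 and 1.48 CPM. Its level was low throughout, and its drop of 2.67 log2 with ventilation (adjusted p = 6.96e-05, authors' deposited table) is a fitted value rather than a bound. Rfx2 stood at 27.7, 22.9, 24, 29.5 and 32.4 CPM and Rfx3 at 26.8, 17.7, 22.9, 18.3 and 14.4 CPM. Neither RFX gene was called in any table, with Rfx3 nearest in unventilated knockouts at -0.60 (adjusted p = 0.0767, authors' deposited table). Lrrc6, a factor for dynein arm assembly in the cytoplasm, stood at 6.14, 4.71, 2.79, 2.69 and 3.94 CPM, all 3 ventilated groups below the unventilated ones, and fell by 1.14 log2 with ventilation (SE 0.361, adjusted p = 0.0228, authors' deposited table).

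Regulators outside the 35 genes were read from a list of 28, of which 24 were tested. In ventilated wild types 5 fell and 1 rose, with a median of -0.10, in the authors' deposited table, where 6.2 percent of all genes fell and 6.94 percent rose. Myb, which acts early in multiciliated cell formation and also in blood progenitors, stood at 31.4, 19.3, 11.1, 8.06 and 6.80 CPM, a drop of 1.51 log2 with ventilation (adjusted p = 8.38e-10, authors' deposited table). Myb also fell by 0.70 in unventilated knockouts (adjusted p = 0.00209, authors' deposited table). Trp73, a p53 family factor upstream of Foxj1, stood at 15.2, 11.7, 6.46, 5.25 and 7.38 CPM and fell by 1.24 with ventilation (adjusted p = 7.37e-05, authors' deposited table). Sox2, an airway identity factor, stood at 19.3, 17.9, 4.28, 8.12 and 12.7 CPM, with -2.17 on ventilation (adjusted p = 1.18e-13) and 1.57 in the high-injury knockout against the ventilated wild type (adjusted p = 0.0252) in the authors' deposited tables. Ptch1, the hedgehog receptor, fell by 1.11 with ventilation (adjusted p = 3.89e-11, authors' deposited table). The remaining calls of that table, named after their values were seen, were the Notch ligand Jag1 at -0.69 (adjusted p = 0.00154) and the receptor Notch2 at 0.49 (adjusted p = 0.0324). Ccno, needed for centriole amplification, stood at 4.57, 4.18, 3.73, 5.47 and 3.96 CPM and was not called, and Mcidas lay below the minimum abundance at 0.668 to 1.82 CPM. In unventilated knockouts the Notch ligand Dll1 rose by 0.59 (adjusted p = 0.0102, authors' deposited table).

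**Figure D2:**
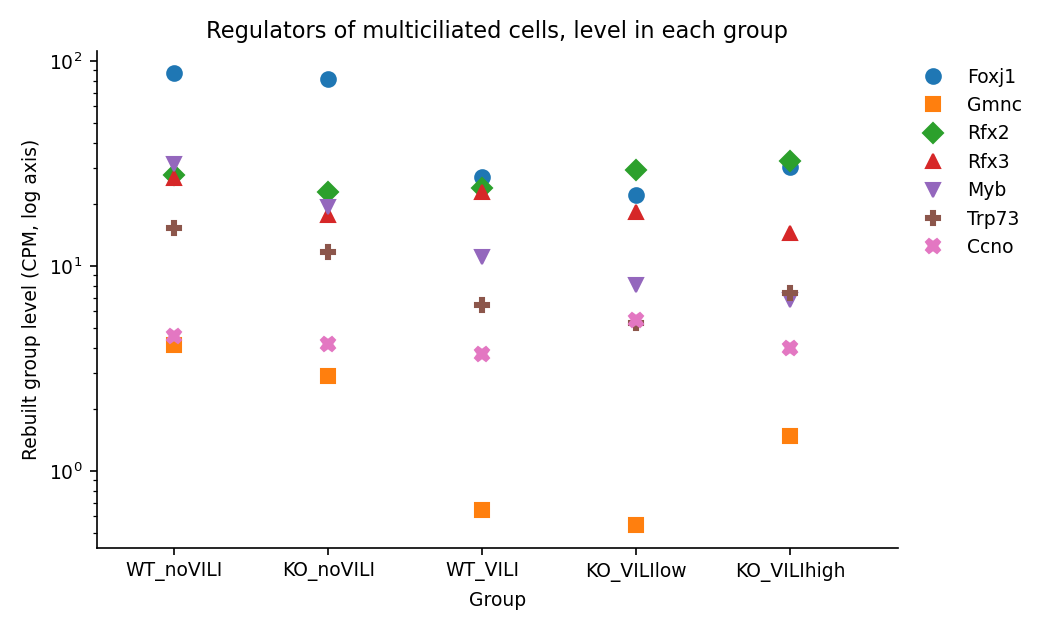
Rebuilt levels in CPM on a log axis of Foxj1, Gmnc, Rfx2, Rfx3, Myb, Trp73 and Ccno in the 5 groups, 1 point per gene and group with no error, since no values per library were used. Foxj1, Gmnc, Myb and Trp73 lie lower in all 3 ventilated groups than in both unventilated groups, while Rfx2, Rfx3 and Ccno do not.

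Set against the ventilated wild type, a group both comparisons share, the low-injury and high-injury knockouts had medians of opposite sign. In the low-injury knockout 3 genes fell (Dnah8, Sntn and Tmem212) and none rose, where 0.434 percent of all genes fell and 0.938 percent rose. The median was -0.24 against -0.01 for all genes, and 32 of 35 genes were negative. Spag16, a central pair protein, was deposited at a fold change of exactly 0 there. In the high-injury knockout the authors' edgeR test called 0 of 35 genes, where 0.651 percent of all genes fell and 1.57 percent rose, and 1 gene was lower and 1 higher at an unadjusted p under 0.05, against 5.94 and 5.73 percent of all genes. The median was 0.19, against -0.01 for all genes, and 8 of 35 genes were negative.

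The direct comparison of the high-injury with the low-injury knockout, derived from the deposited folds, called 0 of 35 genes, where 0.112 percent of all genes rose and 0.014 percent fell, and 4 genes were higher and 0 lower at an unadjusted p under 0.05, against 1.5 and 0.63 percent of all genes. The median was 0.49 log2, with 33 of 35 genes positive. Tmem212 and Sntn had the highest values, at 1.34 (SE 0.502) and 1.06, each with an adjusted p of 1. A difference between the 2 ventilated knockouts was thus not called for any single gene. The genotype difference in the high-injury knockout minus that without ventilation was positive for 34 of 35 genes, with a median of 0.70 against -0.03 for all genes. The subtracted fold change, without ventilation, was itself negative for 34 of 35 genes, with a median of -0.48. Sex and ventilation cannot be told apart in this difference either. Of the 35 genes 0 were called, where 1.13 percent of all genes were called higher and 0.371 percent lower. At an unadjusted p under 0.05, 15 were higher and 0 lower, against 4.98 and 3.92 percent of all genes. Ccdc40 came nearest at 1.08 (adjusted p = 0.0586). The same difference in the low-injury knockout had a median of 0.22 and called 0 genes, where 0.917 percent of all genes were called higher and 0.231 percent lower. At an unadjusted p under 0.05, 1 gene was higher and 0 lower, against 2.91 and 2.6 percent of all genes.

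In all, 12 of the 35 genes were called in 1 or more of the 4 deposited tables, each time lower, where 9.01 percent of all genes were called lower in 1 or more. The other 23 were called in none. The 23 include the heavy chains Dnah2, Dnah6, Dnah7b, Dnah9 and Dnah11, the intermediate chains Dnaic1 and Dnaic2, the light chain Dynlrb2, the spoke genes Rsph1 and Rsph9, the central pair genes Spag6, Spag16 and Spag17, and all 3 tektins (Tekt1, Tekt2 and Tekt4). The others were the assembly factor Zmynd10, the docking factor Armc4, the adenylate kinase Ak7, Fam183b, the microtubule-associated Tppp3, Rfx2 and Rfx3. In the authors' deposited tables their log2 fold changes ran from -0.60 (Rfx3) to 0.01 (Tppp3) in unventilated knockouts and from -0.60 (Zmynd10) to 0.29 (Armc4) in ventilated wild types. Against the ventilated wild type they ran from -0.73 (Armc4) to 0.30 (Rfx2) in the low-injury and from -0.67 (Rfx3) to 0.70 (Spag16) in the high-injury knockout.

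Over the 35 genes, the summed level was 1377, 1066, 1052, 891 and 1192 CPM in the 5 groups. Without Tppp3, which is also expressed outside ciliated cells, it was 1006, 691, 759, 593 and 823 CPM. The highest level was in the unventilated wild type for 22 genes and in the high-injury knockout for 12, and the lowest was in the low-injury knockout for 24 and in the unventilated knockout for 9. All 3 knockout groups lay below both wild-type groups for 8 genes: Ccdc39, Dnah10, Dnah8, Hydin, Rfx3, Rsph4a, Sntn and Spag17. All 3 ventilated groups lay below both unventilated groups for 4 genes: Foxj1, Lrrc6, Tekt4 and Tppp3. These orders rest on 1 rebuilt level per group, and most neighbours in them were not separated by a test.

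Other cilium genes were read from lists outside the 35, also chosen with earlier results of these data known. Of 62 tested axonemal and ciliated cell genes, 8 fell and 0 rose in unventilated knockouts, with a median of -0.43 in the authors' deposited table, where 2.83 percent of all genes fell and 2.01 percent rose. Those with the smallest p were Lrrc23 (-0.69, adjusted p = 0.00144), Ccdc153 (-0.77, adjusted p = 0.00444), Lrriq1 (-1.07, adjusted p = 0.0083) and Ccdc146 (-0.95, adjusted p = 0.0108), all in the authors' deposited table. In ventilated wild types 2 fell and 2 rose with a median of -0.26, where 6.2 percent of all genes fell and 6.94 percent rose, so the list held no more calls than the background. These were Ccdc151 (-1.46, adjusted p = 0.000303), a docking factor, Ccdc153 (-0.58, adjusted p = 0.0457), Nme7 (0.65, adjusted p = 0.00909) and Dnah17 (1.26, adjusted p = 7.34e-06), a heavy chain best known from sperm, in the authors' deposited table. The list had medians of -0.16 and 0.15 in the low-injury and high-injury knockouts, with 0 called in either. Its derived median was 0.31 for the high-injury against the low-injury knockout. For the high-injury genotype difference with minus without ventilation it was 0.57, with 1 gene called higher (Ccdc153) and 0 lower. There 1.13 percent of all genes were called higher and 0.371 percent lower. Of 25 tested genes of intraflagellar transport, which carries cargo along all cilia, motile or not, 0 were called in any table, and their medians were -0.19, -0.19, -0.11 and 0.03 in unventilated knockouts, ventilated wild types, low-injury and high-injury knockouts.

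Markers of other cell types in the lung were summed beside these genes. The summed level of the club and goblet cell list was 10376, 9574, 9636, 9012 and 10284 CPM. It was highest and lowest in the same groups as for the 35 genes. Of its 18 tested genes, 3 fell in unventilated knockouts (median -0.18), where 2.83 percent of all genes fell. In the high-injury knockout 3 rose (median 0.38), where 1.57 percent of all genes rose. Its derived median was 0.78 for the high-injury against the low-injury knockout. For the high-injury genotype difference with minus without ventilation it was 0.59, with 5 genes called higher and 0 lower. There 1.13 percent of all genes were called higher and 0.371 percent lower. The general epithelial list (13 tested) had another order, with a sum of 1994, 1871, 2847, 3056 and 3919 CPM. In it, 6 genes rose and 1 fell with ventilation of the wild type, where 6.94 percent of all genes rose and 6.2 percent fell. In the high-injury knockout 4 rose and 0 fell (median 0.34), where 1.57 percent of all genes rose and 0.651 percent fell. The derived median of this list was 0.38 for the high-injury against the low-injury knockout. For the high-injury genotype difference with minus without ventilation it was 0.41. There 3 genes were called higher and 0 lower, against 1.13 and 0.371 percent of all genes. Cardiac muscle genes, which heart and pulmonary veins express, summed to 874, 328, 577, 1446 and 1007 CPM. Of these, 10 of 12 were lower in unventilated knockouts, against 2.83 percent of all genes. In the low-injury knockout 11 of 12 were higher, against 0.938 percent of all genes. For the high-injury genotype difference with minus without ventilation, 12 of 12 were called higher (median 2.34), against 1.13 percent of all genes. The median of that difference was 0.54 for mesothelial, 0.31 for alveolar type 1 and -0.37 for alveolar type 2 genes. In unventilated knockouts the medians of other lists were also negative, at -1.36 for cardiac muscle, -0.58 for 6 mesothelial genes and -0.33 for 12 alveolar type 1 genes, and that of 11 alveolar type 2 genes was 0.22. The list for cartilage and glands of large airways summed to 43.8, 38.5, 42.2, 50.2 and 110 CPM, with 2 genes above the minimum. The part of these cell types, or of the amount of airway in each sample, in the values above was not tested.

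**Figure D3:**
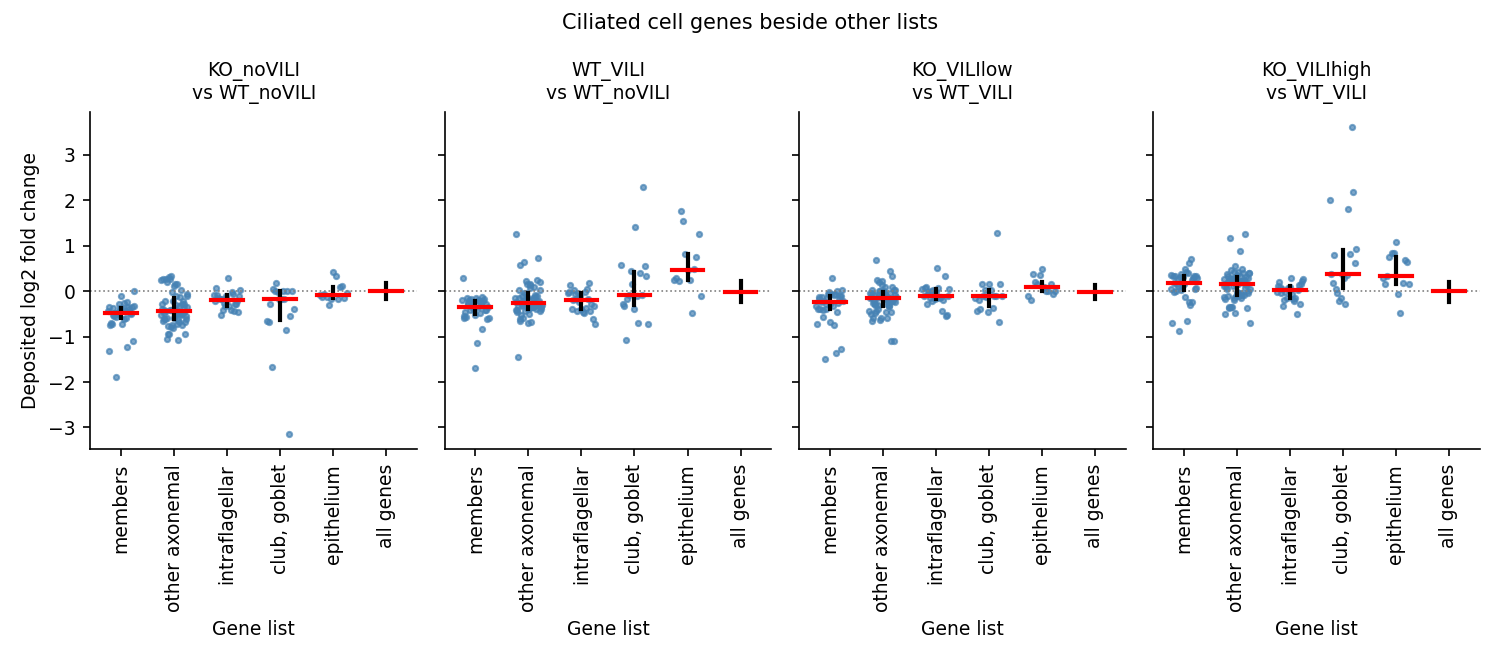
Log2 fold changes of the genes of 5 lists and of all genes in the 4 deposited comparisons, with 1 point per gene (none drawn for all genes), the median in red and the interquartile range as a black bar. The 35 genes and the other axonemal genes lie below 0 in unventilated knockouts (medians -0.48 and -0.43). There the medians of the intraflagellar, club and goblet, and general epithelial lists are -0.19, -0.18 and -0.09.

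Several of the listed transcripts are very long, and fold changes across all genes had a weak trend with transcript length in the ventilated knockout tables. Using the longest coding transcript in GENCODE M21, Spearman's rho with length over 13836 genes was -0.11, 0.03, -0.25 and -0.30 in the 4 tables, in the order unventilated knockout, ventilated wild type, low-injury and high-injury knockout. Across the 35 genes it was -0.38, 0.45, -0.45 and -0.33. These are descriptions across genes, which share libraries and are not independent. The 11 genes of at least 5000 nucleotides, mostly dynein heavy chains, had medians of -0.56, -0.23, -0.38 and 0.01, and the 11 under 2000 nucleotides had -0.42, -0.41, -0.10 and 0.30. For all genes the long and short medians were -0.03 and 0.05 in unventilated knockouts and -0.16 and 0.13 in high-injury knockouts. Centred on genes of like length, the medians of the 35 genes were -0.47, -0.29, -0.21 and 0.21, all close to the values as deposited.

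**Figure D4:**
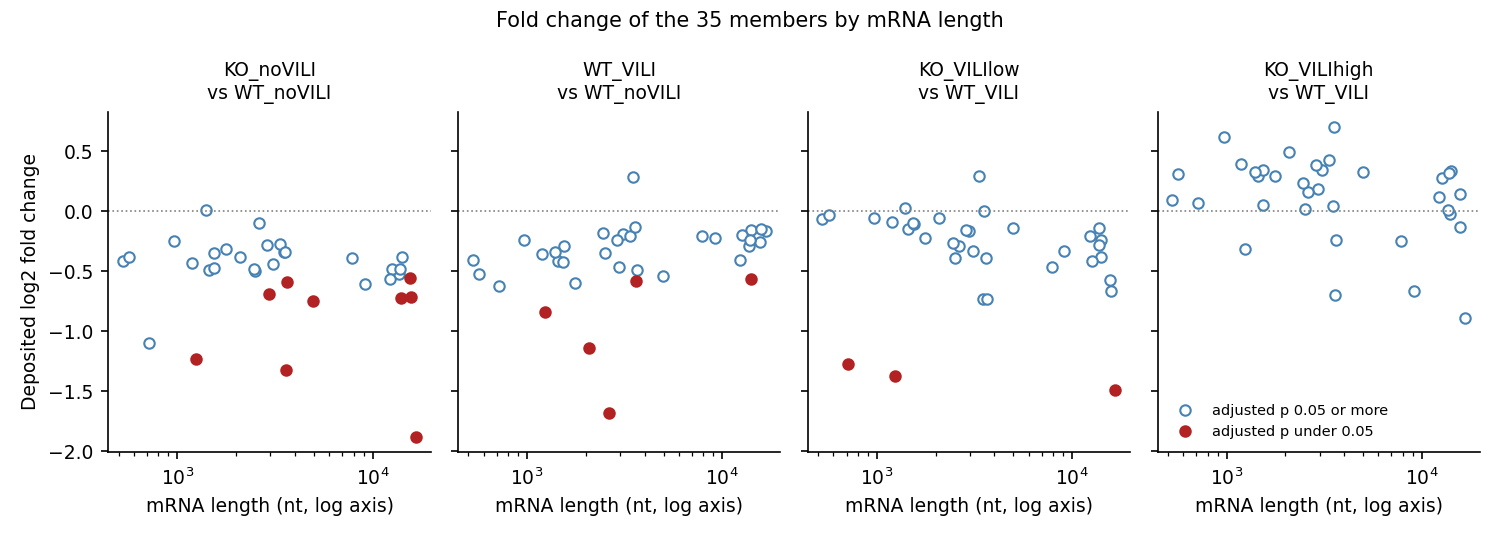
Log2 fold change against mRNA length in nucleotides for the 35 genes in the 4 deposited comparisons, with filled points for genes called at an adjusted p of 0.05. In unventilated knockouts 34 of 35 points lie below 0, and the filled points include 4 of the 11 genes of at least 5000 nucleotides and 1 of the 11 under 2000, Sntn.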

How the data were processed

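Bowtie 1.1.2, R 3.0.1, edgeR (its version is not given in the sources used here) and the mouse build mm9 are named in the submitters' processing notes. The authors deposited 4 comparison tables from edgeR over 21590 genes, with 0 columns of values per library. The log2 fold changes and log2 mean CPM, and the p-value and its adjusted value (FDR) of each gene, are the authors' deposited values. The headers do not state the log base, and it was read as 2. Design text and labels were used for the groups.

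Both ventilated knockout tables were read as comparisons with the ventilated wild type. The rebuilt reference levels had a median offset from it of -0.0948 and -0.0854 log2, and from the unventilated wild type of -0.0965 and -0.0890. With these offsets removed, the median absolute difference was 0.0635 and 0.0464 log2 from the ventilated wild type. From the unventilated wild type it was 0.241 and 0.238. Levels in CPM were rebuilt from the table of ventilated against unventilated wild type and carried to the knockouts by the deposited folds. An SE was approximated for each gene by dividing its absolute log2 fold change by the normal quantile that its p-value corresponds to. Where that p-value was above 0.9, the median SE of genes of like abundance was used. Over the 35 genes the SE's median was 0.204, 0.224, 0.278 and 0.306 log2 in the 4 tables. Derived comparisons summed deposited folds and variances, with Benjamini-Hochberg adjustment over genes with log2 mean CPM of at least 0. Those of ventilated knockouts with each other or with unventilated knockouts count the variance of cancelling groups and are conservative. The difference of genotype effects is not. The procedure was run on simulated data whose p-values came from normal errors of known size. That run cannot show whether an SE taken from the deposited p-values is right.

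Named genes were all 39 listed symbols, with 5 group levels for the 4 regulators, for each gene called in 1 or more tables and for Dnah5, Dnah9, Dnah7b, Hydin, Rsph1 and Tekt1, the other genes by range, and, of the other cilium lists, up to 4 genes with the smallest p per table plus Mcidas, Ccno, Myb and Trp73. The members and lists were chosen with earlier results of these data known. Scgb1a1 and Sftpc were left out of the lists, because their deposited fold change was exactly 0 in all 4 tables. Python 3.11.15, pandas 2.3.3 and scipy 1.17.1 were used. GENCODE M21 and RefSeq GRCm38.p6, another build than mm9, gave names, lengths and promoter sequences.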

Additional observations from a re-analysis of the deposited data

How the results depend on the processing

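No paired analysis was possible because the deposited tables hold no values per library, and leaving out a replicate could not be run for the same reason. At an adjusted p of 0.01 in place of 0.05, 5 genes in unventilated knockouts and 2 in ventilated wild types were called lower, while the low-injury knockout kept a count of 3, where 1.51, 3.69 and 0.252 percent of all genes were called lower. With the SE of genes of like abundance, 1 gene, Ccdc40, was called higher in the high-injury genotype difference with minus without ventilation. Adjusting only over genes above the minimum abundance added Dnah9 and Tmem212 to unventilated knockouts, for 11 genes, and with no minimum Gmnc joined the ventilated wild type, for 6. No median of the 35 genes changed sign under centring on all genes or on genes of like mRNA length, the second chosen after seeing the data. Counting error per library is unknown, so low genes such as Gmnc carry an unknown error.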

Other observations

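Dnah8, whose level in each of the 3 knockout groups lay below both wild-type groups, lies on chromosome 17. Of its 20 nearest tested genes, 2 were lower and 1 higher in unventilated knockouts in the authors' deposited table (Btbd9, Glo1 and Glp1r). Of all genes, 2.83 percent were lower and 2.01 percent higher there. The 20 genes had a median log2 fold change of 0.05. The part of the mixed strain background in these values was not tested. Genes with an X-box match had a median of -0.48 in unventilated knockouts and -0.25 in ventilated wild types, and those with a promoter entry but no match had -0.73 and -0.55. These medians are descriptions with no test.

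Lists of cell types not described above summed, in the order unventilated wild type, unventilated knockout, ventilated wild type, low-injury and high-injury knockout, to 19.7, 21.8, 20.4, 24.5 and 35 CPM for basal and neuroendocrine cells, 11674, 10133, 10947, 10346 and 10169 for alveolar type 1 cells, 15425, 18160, 18094, 17305 and 15042 for alveolar type 2 cells, and 322, 226, 284, 291 and 290 for mesothelium.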
